A study of Homo sapiens with 2 samples.

Results

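The 34 genes described here are the nuclear genes for subunits of cytochrome bc1 (complex III), cytochrome c oxidase (complex IV) and ATP synthase (complex V), read in HGC27 cells, an established human gastric cancer cell line, with and without overexpression of the long non-coding RNA LINC01133. They were chosen by name and function, not by their values, and were matched by symbol, the ATP synthase genes also by older symbols, to the Ensembl identifiers of both libraries. Of the 28303 genes listed, 34 were members: 9 of complex III, 10 of complex IV and 15 of complex V. All 34 had a value in both libraries.

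In the mitochondrial inner membrane, complex III takes electrons from ubiquinol and hands them to cytochrome c, complex IV passes them on to oxygen, and both steps move protons across the membrane. Complex V lets the protons flow back through a turning ring and uses that rotation to join ADP and phosphate. Cytochrome b of complex III, the catalytic core of complex IV and part of the proton path of complex V are made inside the mitochondrion. The subunits described here are made in the cytosol from nuclear transcripts and imported, so each complex needs both genomes. Nuclear respiratory factor 1 (NRF1), the ETS-family factor GABP and YY1 are known to bind promoters of many such genes in mammalian cells.

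One library came from HGC27 cells transfected with pcDNA3.1-linc01133, and 1 from HGC27 cells transfected with pcDNA3.1-control. Both transfections used the reagent Turbofect and both harvests took place 48 h later, per the labels' protocols. The sources used here give neither the share of cells that took up a plasmid nor whether cultures were pooled. With 1 library per group no difference below has a replicate check, so no p-value is given, and the bracketed intervals are exact 95% intervals of counting error only.

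Levels are FPKM, fragments scaled to each gene's merged exon length and each library's depth. The libraries held 16302579 counted fragments with LINC01133 overexpressed and 15666629 in the control. LINC01133 itself had 74 fragments in the overexpression library and 4 in the control library, or 1.44 against 0.0809 FPKM, a ratio of 17.8 (6.66 to 67.0). Of 11 gastric epithelial markers, 8 had values and 0 reached a mean of 1 FPKM, with KRT18, MUC5AC and TFF2 at 0 in both libraries and summed levels of 0.724 FPKM with overexpression and 0.582 FPKM in the control. Of 7 mesenchymal and fibroblast markers, 6 reached that mean, led by COL3A1 at 322 FPKM in the overexpression library and 325 FPKM in the control, VIM at 210.0 and 198 FPKM and COL1A1 at 162 and 209 FPKM. Among 6 blood and endothelial markers only HBA1 reached it, at 0.882 FPKM with overexpression and 1.61 FPKM in the control, and CDH5 was at 0 in both. Their part in any difference between the libraries was not tested.

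As deposited, the subunit genes were on balance a little lower in the overexpression library, and no member differed by 2-fold. With a trend on expression level subtracted, their median lay just above 0 but still below the median of all genes. Differences are given as the log2 ratio of FPKM + 1, overexpression over control, and genes with a mean of at least 1 FPKM over both libraries were kept, 11945 in all and 32 of the 34 members. The members' median log2 ratio was -0.29, with a range of -0.72 to 0.75, beside a median of 0.10 over all genes kept, whose quartiles were -0.28 and 0.63. Of the 32 members, 0 were at least 2-fold higher and 0 at least 2-fold lower, against 11.9% and 0.444% of all genes kept. At the smaller fold of 1.2, 17 members were lower, where 26.2% of all genes kept were, and 4 were higher, where 41.5% of all genes kept were. The remaining 11 lay between. Below 0 were 23 of the 32 members, against 44.6% of all genes kept. The counting interval of the FPKM ratio lay wholly below 1 for 16 members and wholly above 1 for 7, and it held 1 for the other 9. These intervals narrow with more fragments, and their counts over all genes are not given here. The 16 and 7 are therefore not read as a result about the members. Rescaling by the median of ratios, a trimmed mean (TMM) or the upper quartile would shift every log2 ratio of FPKM itself by about -0.21, -0.21 or -0.077. The log2 ratio of FPKM + 1 shifts by less where levels are low. Such a downward shift can only keep the 17 lower members lower, so that they stayed so adds nothing. The 4 higher members all stayed above 0, but only 1, 1 and 3 of them, in the same order, stayed at least 1.2-fold higher. With the lowess trend of all genes on mean level subtracted, keeping the median of all genes at 0.10, the members' median was 0.059. Then 3 members were at least 1.2-fold lower and 9 at least 1.2-fold higher. The shares of all genes at that fold under this subtraction are not given here.

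**Figure D1:**
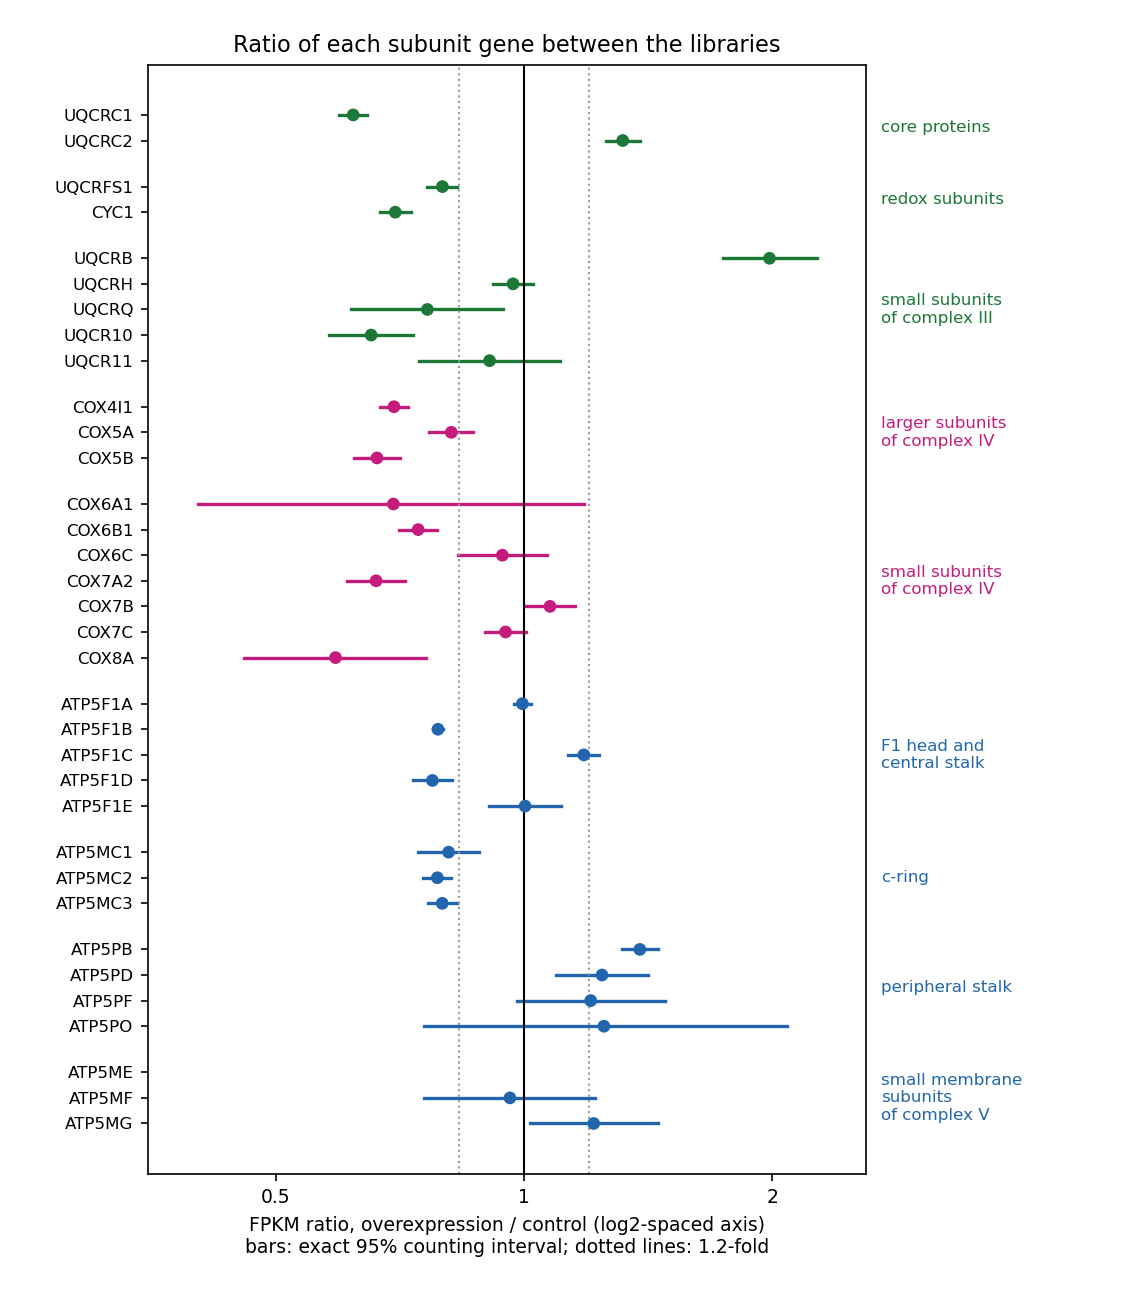
FPKM ratio of overexpression over control (log2-spaced axis) for each subunit gene, grouped by role, with exact 95% counting intervals as bars, 1 library per group, and dotted lines at 1.2-fold. COX8A at 0.590 is the lowest point and UQCRB at 1.98 the highest, and the c-ring and peripheral stalk genes of complex V lie on opposite sides of 1. ATP5ME, with 3 fragments in the overexpression library and 1 in the control, is not drawn.

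The members spanned a wide range of levels. Over both libraries, 23 of the 32 averaged at least 10 FPKM and 6 at least 100 FPKM. Over all 34 members, those under the filter included, the median of the mean levels was 41.6 FPKM, beside 5.68 FPKM over all genes kept. The catalytic beta subunit of ATP synthase, ATP5F1B (ENSG00000110955, chr12:56638175-56646068, minus strand, GRCh38), stood far above the rest. The 2 members under the filter were ATP5ME, at 0.196 FPKM in the overexpression library and 0.0679 FPKM in the control from 3 and 1 fragments, and ATP5PO, at 0.717 and 0.574 FPKM from 39 and 30 fragments. Of all members, 11 share at least 10% of their exon bases with another gene on either strand. These 11 had a median level of 6.14 FPKM, beside 71.8 FPKM for the 23 others. The sources used here do not say how fragments over shared bases were counted.

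**Figure D2:**
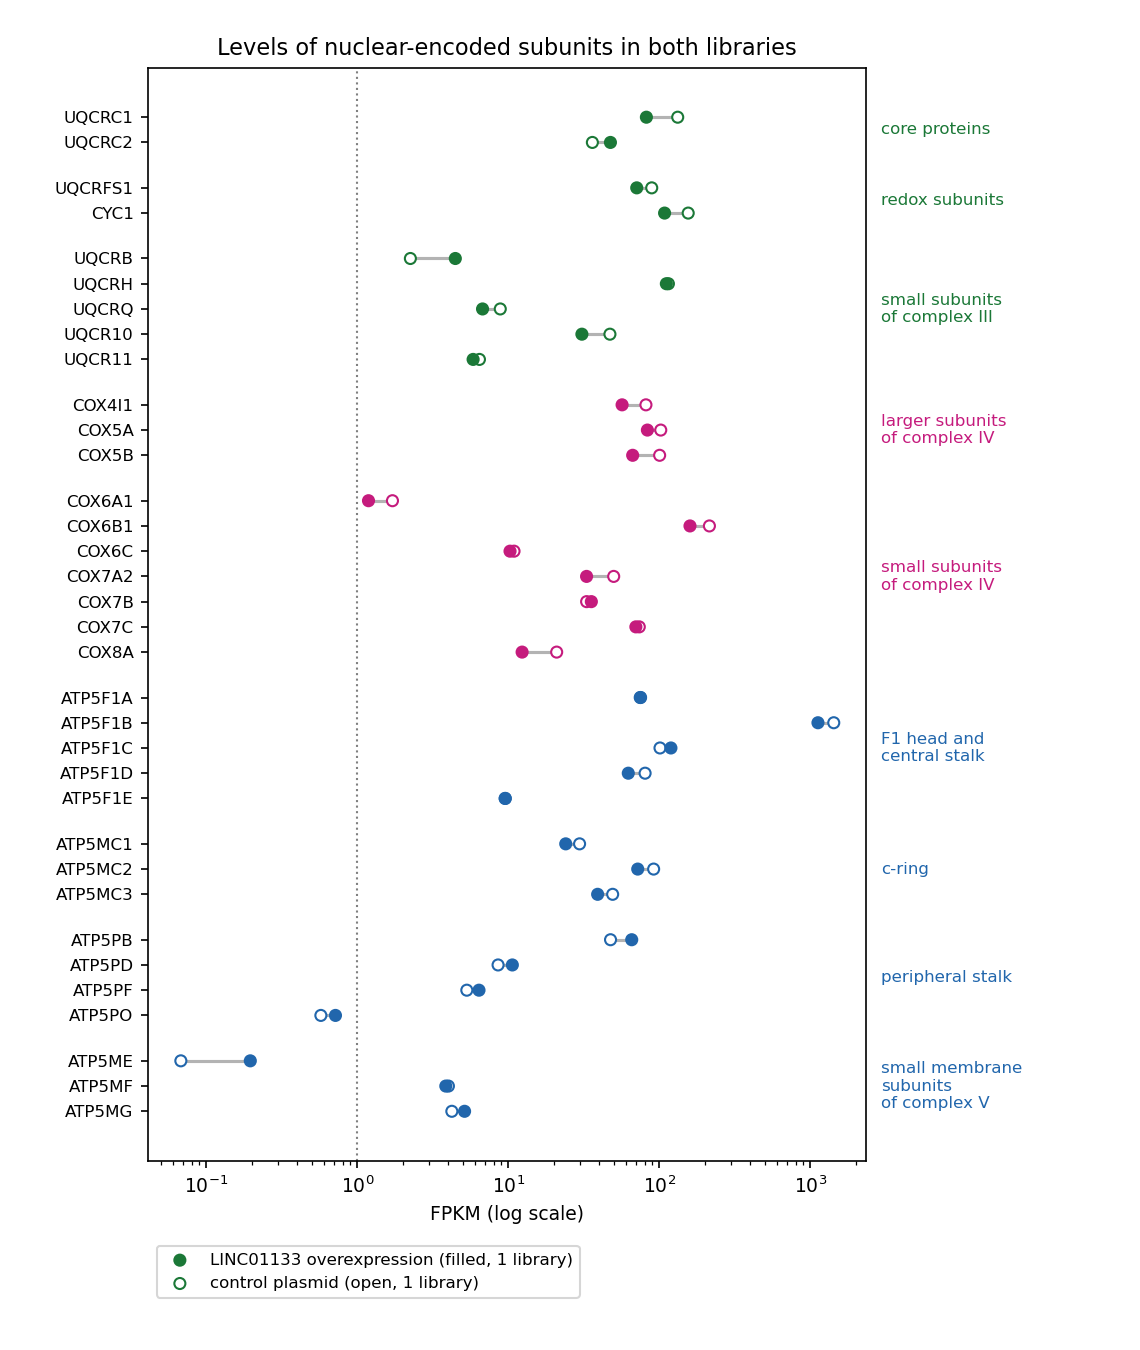
Level of each subunit gene in FPKM (log scale), filled points for the LINC01133 overexpression library and open points for the control library, 1 library each, with a dotted line at 1 FPKM. ATP5F1B lies above 1000 FPKM in both libraries, most members lie above 10 FPKM, and ATP5ME and ATP5PO lie below 1 FPKM in both.

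Complex III holds a pair of large core proteins on its matrix side, and they differed in opposite directions. UQCRC1 (core protein 1, ENSG00000010256, chr3:48599002-48610976, minus strand, GRCh38) had 82.1 FPKM in the overexpression library and 132 FPKM in the control, a ratio of 0.620 (0.597 to 0.645) and a log2 ratio of -0.68. UQCRC2 (core protein 2, ENSG00000140740, chr16:21952660-21983660, plus strand) had 47.4 FPKM in the overexpression library and 36.0 FPKM in the control, a ratio of 1.32 (1.26 to 1.38) and a log2 ratio of 0.39. UQCRC1 was thus the higher of the pair in both libraries, but by less where LINC01133 was overexpressed. Neither gene shares exon bases with another gene, and both rest on many fragments: 4329 with overexpression and 6706 in the control for UQCRC1, and 4034 and 2944 for UQCRC2. The pair also differed in the GC content of the transcript, which was 59.5% for UQCRC1 and 45.5% for UQCRC2. Their promoters, 250 bases before to 50 bases after the RefSeq start on GRCh38.p14, are shown because the pair lay on opposite sides of 1. Capitals mark the motifs searched on both strands: GCGCANGCG for NRF1, CCGGAAG for ETS factors and AANATGGC for YY1.
UQCRC1 promoter, chr3:48609597-48609896, minus strand: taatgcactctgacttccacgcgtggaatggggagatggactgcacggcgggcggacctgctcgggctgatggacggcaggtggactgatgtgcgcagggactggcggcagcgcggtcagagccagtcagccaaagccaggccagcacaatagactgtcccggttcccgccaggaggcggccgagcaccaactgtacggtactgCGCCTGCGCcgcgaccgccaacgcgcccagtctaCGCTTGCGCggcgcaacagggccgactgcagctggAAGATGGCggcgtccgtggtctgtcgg
UQCRC2 promoter, chr16:21953111-21953410, plus strand: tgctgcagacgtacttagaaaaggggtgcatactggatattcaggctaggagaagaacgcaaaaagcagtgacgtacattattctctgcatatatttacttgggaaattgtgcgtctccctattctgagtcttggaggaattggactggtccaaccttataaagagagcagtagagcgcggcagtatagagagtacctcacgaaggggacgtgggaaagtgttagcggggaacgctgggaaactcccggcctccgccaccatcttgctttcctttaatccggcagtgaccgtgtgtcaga
The UQCRC1 window holds the NRF1 motif at bases 205 and 239, both on the other strand, and the YY1 motif at base 274, counted from its first base. None of the 3 motifs is in the UQCRC2 window, which says only that these letters are not in it. The windows have 67.3% and 49.3% GC.

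The redox-active nuclear subunits of complex III were both lower as deposited, and with trends on GC content and length subtracted CYC1 was at 0.061 and UQCRFS1 at -0.60. CYC1, cytochrome c1, which passes the electron on to cytochrome c, had 108 FPKM in the overexpression library and 155 FPKM in the control, a ratio of 0.698 (0.668 to 0.729). UQCRFS1, the Rieske iron-sulfur protein that takes the electron from ubiquinol, had 70.8 FPKM with overexpression and 89.0 FPKM in the control, a ratio of 0.796 (0.763 to 0.830). Their log2 ratios were -0.52 and -0.33. UQCRFS1P1, a pseudogene of UQCRFS1, carried 142 fragments in the overexpression library and 163 in the control, beside 4013 and 4846 of its parent, so fragments of near-identical copies may be split.

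The small subunits of complex III ranged most widely. UQCRB, the ubiquinone-binding protein, was the highest of all members in log2 ratio, with 4.46 FPKM in the overexpression library and 2.25 FPKM in the control, from 706 and 342 fragments. Its ratio was 1.98 (1.74 to 2.26) and its log2 ratio 0.75, and its transcript had the lowest GC content of the members kept, 38.3%. The sign turned with trends on GC content and length subtracted, to a log2 ratio of -0.21. UQCR10 was the lowest of the group, at 30.7 FPKM with overexpression and 47.1 FPKM in the control, a log2 ratio of -0.60. UQCRQ had 6.75 FPKM in the overexpression library and 8.85 FPKM in the control, a log2 ratio of -0.35, but 20.8% of its exon bases are shared with GDF9 on the other strand. UQCRH, the acidic hinge protein between cytochrome c1 and cytochrome c, differed little, with 111 FPKM in the overexpression library and 115 FPKM in the control. UQCR11 had 5.85 and 6.44 FPKM, in the same order. For both UQCRH and UQCR11 the counting interval held 1, at 0.917 to 1.02 and 0.746 to 1.10. Over complex III as a whole, 5 of 9 genes were at least 1.2-fold lower and 2 higher, against 26.2% and 41.5% of all genes kept. The complex III median log2 ratio was -0.33.

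Complex IV leaned most to one side, with 7 of 10 genes at least 1.2-fold lower and 0 higher, against 26.2% and 41.5% of all genes kept. Its median log2 ratio was -0.37. Its larger nuclear subunits surround the mitochondrially made core, and all 3 were lower. COX4I1, the widely expressed form of subunit 4, had 56.7 FPKM in the overexpression library and 81.5 FPKM in the control, a ratio of 0.695 (0.669 to 0.723). COX5A had 83.3 FPKM with overexpression and 102 FPKM in the control, a ratio of 0.816 (0.767 to 0.867). COX5B, which carries a zinc ion, had 66.6 FPKM in the overexpression library and 100.4 FPKM in the control, a ratio of 0.663 (0.621 to 0.707). The 3 log2 ratios, in the order just given, were -0.52, -0.29 and -0.59, and their median was -0.52. The COX5B gene (ENSG00000135940) lies at chr2:97646040-97648383 on the plus strand, and its promoter is shown as the one member window with 2 ETS motifs in the orientation printed, at bases 214 and 246.
COX5B promoter, chr2:97645812-97646111, plus strand: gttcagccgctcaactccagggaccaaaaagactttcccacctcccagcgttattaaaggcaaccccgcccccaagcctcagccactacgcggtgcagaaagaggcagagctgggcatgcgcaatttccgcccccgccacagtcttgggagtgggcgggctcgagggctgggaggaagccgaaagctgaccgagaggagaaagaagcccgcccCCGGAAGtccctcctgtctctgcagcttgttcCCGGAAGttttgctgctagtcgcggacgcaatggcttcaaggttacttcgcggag

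The 7 small subunits of complex IV had a median log2 ratio of -0.31 and split into 4 lower genes and 3 that differed by less than 1.2-fold. COX8A, a small subunit that spans the membrane, was the lowest of all members, at 12.3 FPKM in the overexpression library and 20.9 FPKM in the control, a ratio of 0.590 (0.457 to 0.760) and a log2 ratio of -0.72. It rests on 102 and 166 fragments, and 34.5% of its exon bases are shared with a same-strand gene, AP000721.1. COX7A2, the widely expressed form of subunit 7A, had 33.0 FPKM with overexpression and 49.8 FPKM in the control, a log2 ratio of -0.58. COX6B1, which faces the intermembrane space where cytochrome c docks, had 160 FPKM in the overexpression library and 214 FPKM in the control, a log2 ratio of -0.42. With trends on GC content and length subtracted, COX8A was at -0.26, COX7A2 at -0.996 and COX6B1 at -0.0046, and with the level trend COX6B1 was above 0, at 0.046. COX6A1 had 1.19 FPKM with overexpression and 1.71 FPKM in the control, from 26 and 36 fragments, with a ratio of 0.694 whose interval, 0.402 to 1.18, holds 1. Its pseudogene COX6A1P2 carried more fragments than COX6A1 in the overexpression library, 40, and fewer in the control, 28. The last 3 genes of the group lay near equality. COX6C had 10.3 FPKM in the overexpression library and 10.9 FPKM in the control, and COX7C had 69.9 and 73.6 FPKM. COX7B, at 35.5 FPKM with overexpression and 33.0 FPKM in the control, was the only complex IV gene above 0, with a log2 ratio of 0.10.

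In complex V, 5 of the 13 genes kept were at least 1.2-fold lower and 2 higher, against 26.2% and 41.5% of all genes kept. The complex V median log2 ratio was -0.0072. That median was -0.29 over the 5 genes sharing under 5% of exon bases with another gene and -0.31 over the 8 with at least 1000 fragments in both libraries. In the F1 head the alpha and beta subunits form the catalytic hexamer together, yet their transcripts differed. ATP5F1B (beta) had 1122 FPKM in the overexpression library and 1428 FPKM in the control, a ratio of 0.786 (0.776 to 0.796). ATP5F1A (alpha) had 74.7 FPKM with overexpression and 75.1 FPKM in the control, a ratio of 0.995 (0.971 to 1.02). The merged exons of ATP5F1A span 10908 bases, beside 5818 for the transcript used for its GC content, so its per-length level may be underestimated, while its ratio between the libraries does not depend on length. The subunits of the central stalk, which turns inside the head, also spread. ATP5F1C (gamma) had 119 FPKM in the overexpression library and 101 FPKM in the control, a log2 ratio of 0.24. ATP5F1D (delta) had 62.3 FPKM with overexpression and 80.5 FPKM in the control, a log2 ratio of -0.36, which turned to 0.23 with trends on GC content and length subtracted and to 0.041 with the level trend. ATP5F1E (epsilon) had 9.55 FPKM in the overexpression library and 9.53 FPKM in the control.

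The 3 genes for subunit c encode the same mature protein of the rotating c-ring behind different import signals. All 3 were lower by a similar amount as deposited. Once GC content and length trends were subtracted they lay apart, with ATP5MC3 at -1.03, ATP5MC1 at 0.080 and ATP5MC2 at 0.11. ATP5MC1 had 23.997 FPKM in the overexpression library and 29.6 FPKM in the control, a ratio of 0.810 (0.744 to 0.881). ATP5MC2 had 71.9 FPKM with overexpression and 91.6 FPKM in the control, a ratio of 0.785 (0.755 to 0.816). ATP5MC3 had 39.0 FPKM in the overexpression library and 49.1 FPKM in the control, a ratio of 0.795 (0.764 to 0.828). Their intervals overlap one another, and their log2 ratios lay between -0.35 and -0.29. The order of their levels, with ATP5MC2 highest and ATP5MC1 lowest, was the same in both libraries.

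The peripheral stalk, which holds the head still while the ring turns, lay on the other side, though with trends on GC content and length subtracted ATP5PB was at 0.0071. ATP5PB (subunit b, ENSG00000116459, chr1:111448864-111462773, plus strand) had 65.6 FPKM in the overexpression library and 47.5 FPKM in the control, a ratio of 1.38 (1.31 to 1.45) and a log2 ratio of 0.46. ATP5PD (subunit d) had 10.6 FPKM with overexpression and 8.55 FPKM in the control, a ratio of 1.24 (1.09 to 1.41). ATP5PF (coupling factor 6, ENSG00000154723, chr21:25716503-25735673, minus strand) had 6.40 FPKM in the overexpression library and 5.31 FPKM in the control, a ratio of 1.204 whose interval, 0.980 to 1.48, holds 1. The fourth stalk gene, ATP5PO, was higher too on its few fragments, with an interval of 0.756 to 2.08. All 4 share exon bases with other genes, from 10.3% for ATP5PB to 25.4% for ATP5PO, and ATP5PF shares 23.1% of them, its opposite-strand partners being GABPA and JAM2. Strand was not given for the counting, so fragments of such partners cannot be told apart. The ATP5PF promoter is shown as a stalk promoter in which all 3 motifs occur, NRF1 at base 131, YY1 at base 194 and ETS at base 221.
ATP5PF promoter, chr21:25735005-25735304, minus strand: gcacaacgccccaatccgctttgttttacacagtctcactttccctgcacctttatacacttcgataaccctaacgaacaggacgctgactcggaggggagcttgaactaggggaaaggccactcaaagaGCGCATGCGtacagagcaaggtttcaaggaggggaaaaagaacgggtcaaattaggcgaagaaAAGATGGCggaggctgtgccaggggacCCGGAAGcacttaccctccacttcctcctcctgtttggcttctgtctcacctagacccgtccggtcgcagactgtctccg
Of the small membrane subunits that help ATP synthase form dimers, ATP5MG (subunit g) had 5.13 FPKM in the overexpression library and 4.23 FPKM in the control, a log2 ratio of 0.23, and ATP5MF (subunit f) had 3.86 and 4.01 FPKM. ATP5MF also overlaps the read-through gene ATP5MF-PTCD1, and ATP5ME (subunit e) shares 61.6% of its exon bases, its opposite-strand partner being MYL5.

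Summed over the 34 genes, the members took up a smaller share of the overexpression library. They had 114260 fragments, or 0.701% of the total (exact binomial interval 0.697% to 0.705%), in the overexpression library, against 130915 fragments, or 0.836% (0.831% to 0.840%), in the control. The ratio of the shares was 0.839. ATP5F1B alone held 37.2% of the members' fragments in the overexpression library and 39.7% in the control, and without it the shares were 0.440% and 0.504%. By complex, the shares with overexpression and in the control were 0.123% and 0.149% for complex III, 0.0984% and 0.127% for complex IV, and 0.480% and 0.560% for complex V. In bulk RNA, less RNA per cell and fewer cells carrying it cannot be told apart.

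Across all genes kept, the log2 ratio followed the GC content of the transcript closely, and the subunit genes have to be read against that slope. Between the log2 ratio and GC content, Spearman's rho was -0.801 for 11913 genes and -0.577 for the 32 members, both as a description across genes that share the same 2 libraries. The members' own GC content was ordinary, with a median of 47.7% beside 49.0% over all genes kept. Their transcripts were short, with a median of 1254 bases beside 3085, and their coding sequences shorter still, at 361.5 bases beside 1371 for protein-coding genes. Split by GC content, the 10 members of the lowest range, 38.3% to 43.6% GC, had a median log2 ratio of 0.052 where the 2553 genes of that range had 0.75. The 12 members of the middle range, 45.1% to 53.1% GC, had -0.31 where 3216 genes had 0.089. The 10 members of the highest range, 53.5% to 69.6% GC, had -0.36 and thus lay close to the -0.33 of the 4217 genes there. The distance from other genes of like GC content was therefore largest among the AT-rich subunit genes.

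**Figure D3:**
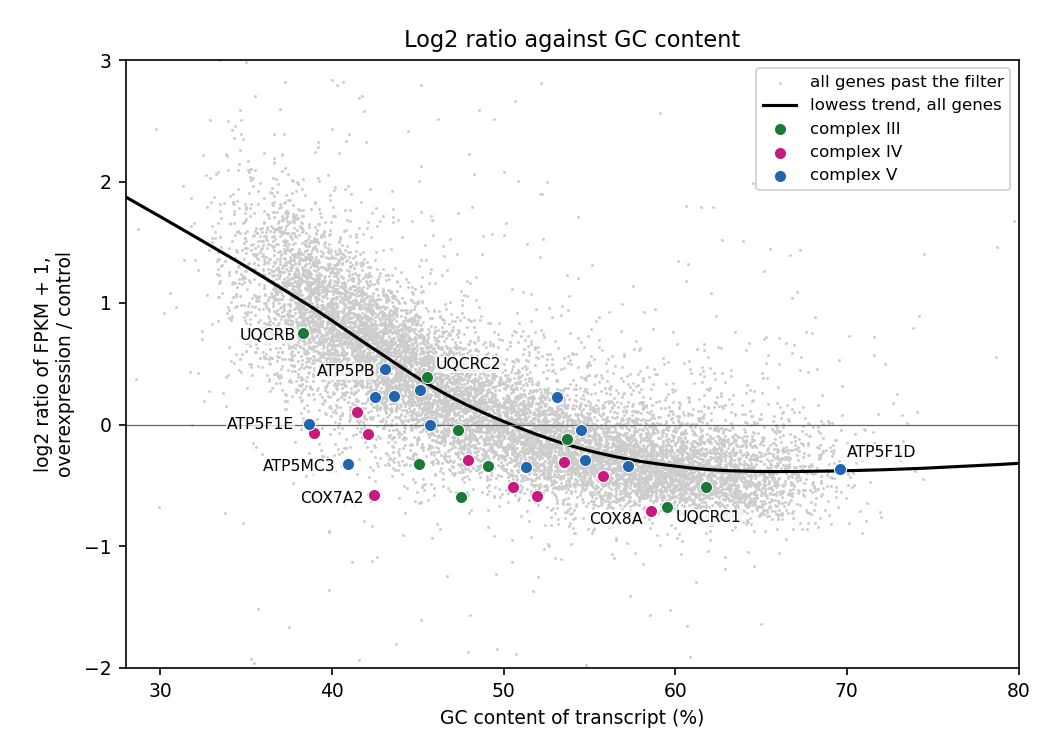
Log2 ratio of FPKM + 1, overexpression over control, against the GC content of the transcript in percent, for all genes past the filter (grey), with the lowess trend as a black line, and for the members of complexes III, IV and V (coloured), 1 library per group. COX7A2, ATP5MC3 and ATP5F1E lie far below the trend at low GC content, while the members at high GC content lie near it.

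Once lowess trends on GC content and transcript length were subtracted, keeping the median of all genes at 0.10, the members' median was -0.19. Then 11 members were at least 1.2-fold lower, where 10.1% of all genes were, and 2 were at least 1.2-fold higher, where 28.5% of all genes were. The genes farthest below the trends were ATP5MC3 at a log2 ratio of -1.03, COX7A2 at -0.996, ATP5F1E at -0.88, COX7C at -0.84, UQCRFS1 at -0.60 and UQCR10 at -0.58. Of these, ATP5F1E and COX7C hardly differed between the libraries in FPKM itself. The genes that were highest without subtraction were then near or below 0.10, with UQCRB at -0.21 and ATP5PB at 0.0071, or a little above it, with UQCRC2 at 0.18. The highest was then ATP5PF at 0.58. Among the GC-rich members, UQCRC1 was at -0.18, CYC1 at 0.061, COX6B1 at -0.0046 and ATP5F1D, at 69.6% GC the most GC-rich, at 0.23. GC content and length were read from each gene's longest coding transcript with a 3′ UTR. That transcript had 5484 bases for ATP5MC3, 3665 for ATP5F1E and 5575 for UQCRB, of which 426, 153 and 333 were coding. Which transcripts the cells expressed is not known here, so the values with trends subtracted depend on that choice.

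The members are also abundant, and among the 32 of them the log2 ratio was lower at a higher mean level (Spearman's rho -0.365, a description). The level trend alone gave the median of 0.059 above. With GC content, length and level trends all subtracted, an alternative chosen after the data were seen, the median was -0.062, with 10 lower and 3 higher. The shares of all genes at that fold with all trends subtracted are not given here either. By complex, the level trend left medians of -0.065 for complex III, -0.044 for complex IV and 0.10 for complex V, and all trends left -0.030, -0.21 and 0.12, so which complex was lowest depended on the trends. Of the 17 members that were at least 1.2-fold lower as deposited, 12 lay below 0 with the trends on GC content and length subtracted, 9 with the level trend and 11 with all, but no more than 6, 3 and 4 of them stayed at least 1.2-fold lower. Whether GC content, length or level played a part in the difference between the libraries was not tested.

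**Figure D4:**
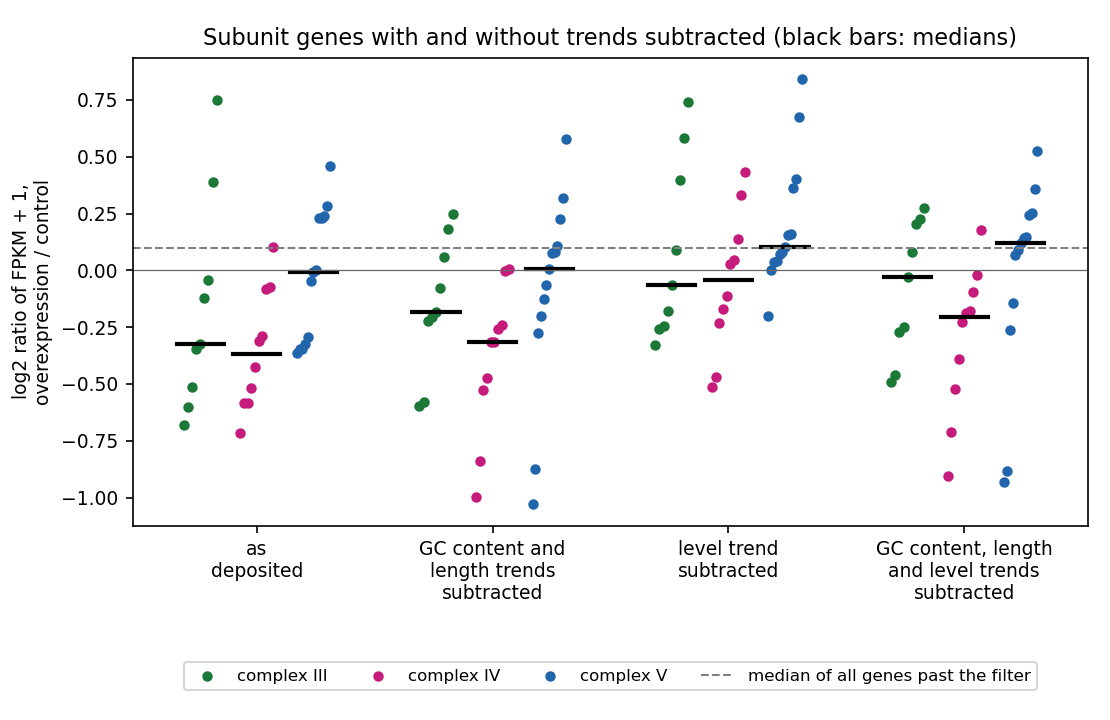
Log2 ratio of FPKM + 1, overexpression over control, of the members of each complex (points, black bars for medians) as deposited and with trends over all genes subtracted, 1 library per group, with the median of all genes, 0.10, dashed. The members' median is -0.29 as deposited, -0.19 without the GC content and length trends, 0.059 without the level trend and -0.062 without all of them.

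The subunits that mitochondria make themselves were not far from equality either. Of the 6 genes, MT-CYB, the cytochrome b of complex III, was the lowest, at 3886 FPKM in the overexpression library and 5057 FPKM in the control, a log2 ratio of -0.38. The catalytic complex IV genes MT-CO1 and MT-CO2 were lower by less. MT-CO1 had 17720 FPKM with overexpression and 20562 FPKM in the control, and MT-CO2 had 12774 and 14614 FPKM. MT-CO3 had 15595 FPKM in the overexpression library and 15096 FPKM in the control, and MT-ATP6, part of the proton path of complex V, had 3417 and 3470 FPKM. MT-ATP8 was the exception, at 9.78 FPKM with overexpression and 5.24 FPKM in the control, but from 33 and 17 fragments, and it overlaps MT-ATP6. The median of the 6 log2 ratios was -0.11, and together they took up 5.51% of the fragments in the overexpression library and 6.17% in the control. The libraries were poly(A)-selected, and mitochondrial transcripts carry short tails, so these levels describe what the selection kept.

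Related subunits and isoforms were few. Of 13 such genes 11 had values and 7 were kept, with a median log2 ratio of -0.20, 2 at least 1.2-fold lower and 1 higher, against 26.2% and 41.5% of all genes kept. COX7A2L, which joins complexes III and IV in supercomplexes, had 21.4 FPKM in the overexpression library and 26.4 FPKM in the control. ATP5MJ, a small ATP synthase subunit, had 19.3 FPKM with overexpression and 23.3 FPKM in the control, and DMAC2L, coupling factor B, had 1.81 and 1.11 FPKM. UQCRHL, an intronless copy of UQCRH, had 2.31 FPKM in the overexpression library and 2.81 FPKM in the control, far below UQCRH itself.

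The proteins that assemble these complexes were spread to both sides. Of 37 assembly factors 27 were kept, with a median log2 ratio of 0.12 as deposited and -0.042 under TMM scaling. All genes kept had medians of 0.10 and -0.082, in the same order. Of the 27 factors, 11 were at least 1.2-fold higher and 7 at least 1.2-fold lower, and 3 of the 11 were at least 2-fold higher. These counts are near what the shares of all genes kept, 41.5%, 26.2% and 11.9%, would give, so they say nothing particular about assembly factors. For complex III, LYRM7, a chaperone of the Rieske protein, had 5.39 FPKM in the overexpression library and 0.985 FPKM in the control, a log2 ratio of 1.69, and TTC19 had 6.58 and 4.15 FPKM. BCS1L, which inserts the Rieske protein, was lower, at 16.5 FPKM with overexpression and 21.2 FPKM in the control, and so was UQCC2, at 4.70 and 6.55 FPKM. LYRM7 and BCS1L thus lay on opposite sides, while their client UQCRFS1 was lower. The median of the 5 complex III factors kept was 0.12.

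For complex IV, 19 of 26 factors were kept, with a median log2 ratio of 0.14, 8 higher and 4 lower at 1.2-fold. COX11, which helps to insert copper, had 13.1 FPKM in the overexpression library and 5.52 FPKM in the control, and HIGD1A had 5.75 and 2.21 FPKM. Their log2 ratios of 1.11 and 1.07 became 0.33 and 0.20 with trends on GC content and length subtracted, under 2-fold, and HIGD1A shares 34.1% of its exon bases. COA6, also of the copper route, had 4.49 FPKM with overexpression and 2.08 FPKM in the control. HIGD2A went the other way, at 13.96 FPKM in the overexpression library and 25.8 FPKM in the control, a log2 ratio of -0.84, or -0.44 with those trends subtracted. For complex V, ATPAF1, a chaperone of the beta subunit, had 12.1 FPKM with overexpression and 9.28 FPKM in the control, and ATPAF2, a chaperone of the alpha subunit, had 2.81 and 4.68 FPKM. TMEM70, which aids assembly of the c-ring, had 14.1 FPKM in the overexpression library and 13.5 FPKM in the control, and the median of the 3 was 0.065.

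As deposited, CYCS, TFAM, GABPA and TFB2M had larger log2 ratios than any of the 34 members. CYCS, the carrier that links complex III to complex IV, had 79.3 FPKM in the overexpression library and 29.3 FPKM in the control, a ratio of 2.71 (2.57 to 2.85) and a log2 ratio of 1.41. HCCS, the lyase that attaches haem to cytochrome c and c1, had 9.12 FPKM with overexpression and 8.80 FPKM in the control. Of 15 transcriptional regulators 14 were kept, with a median log2 ratio of 0.21. At least 1.2-fold higher were 7 and at least 1.2-fold lower 5, against 41.5% and 26.2% of all genes kept. The 5 lower ones were NRF1 (-0.30), ESRRA (-0.51), POLRMT (-0.55), MYC (-0.31) and HCFC1 (-0.33). TFAM, which packages mitochondrial DNA and is needed to transcribe it, had 11.04 FPKM in the overexpression library and 2.25 FPKM in the control, a log2 ratio of 1.89. TFB2M, the mitochondrial transcription initiation factor, had 20.0 FPKM with overexpression and 10.9 FPKM in the control. GABPA, the DNA-binding part of GABP, had 5.12 FPKM in the overexpression library and 1.199 FPKM in the control, and its partner GABPB1 had 3.60 and 2.02 FPKM. CYCS, TFAM, GABPA, TFB2M, LYRM7 and GABPB1 have AT-rich transcripts. With the trends on GC content and length subtracted, they were at 0.79, 0.94, 0.36, 0.32, 0.62 and -0.28, in that order. GABPA and TFB2M thus lay below ATP5PF, at 0.58. NRF1 was then at -0.31, ESRRA at 0.019, POLRMT at -0.065, MYC at 0.011 and HCFC1 at 0.076.

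Complexes I and II, which feed electrons into the same chain, were read for comparison. Of 37 nuclear-encoded complex I genes 30 were kept, with a median log2 ratio of -0.18. Of these, 12 were at least 1.2-fold lower and 4 higher, against 26.2% and 41.5% of all genes kept. NDUFS8 had 25.3 FPKM in the overexpression library and 43.1 FPKM in the control, and NDUFA5 had 5.72 and 1.45 FPKM. With trends on GC content and length subtracted, their log2 ratios of -0.75 and 1.46 became -0.17 and 0.21. The 4 complex II genes had a median of -0.037, from SDHA at 24.7 FPKM with overexpression and 31.8 FPKM in the control to SDHD at 14.9 and 2.04 FPKM, the highest log2 ratio of these lists at 2.39. As deposited the members' median of -0.29 lay below that of complex I, but with trends on GC content and length subtracted they were at -0.19 and -0.18, with the level trend at 0.059 and -0.015, and with all trends at -0.062 and -0.075, so no lasting order is read here.

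**Figure D5:**
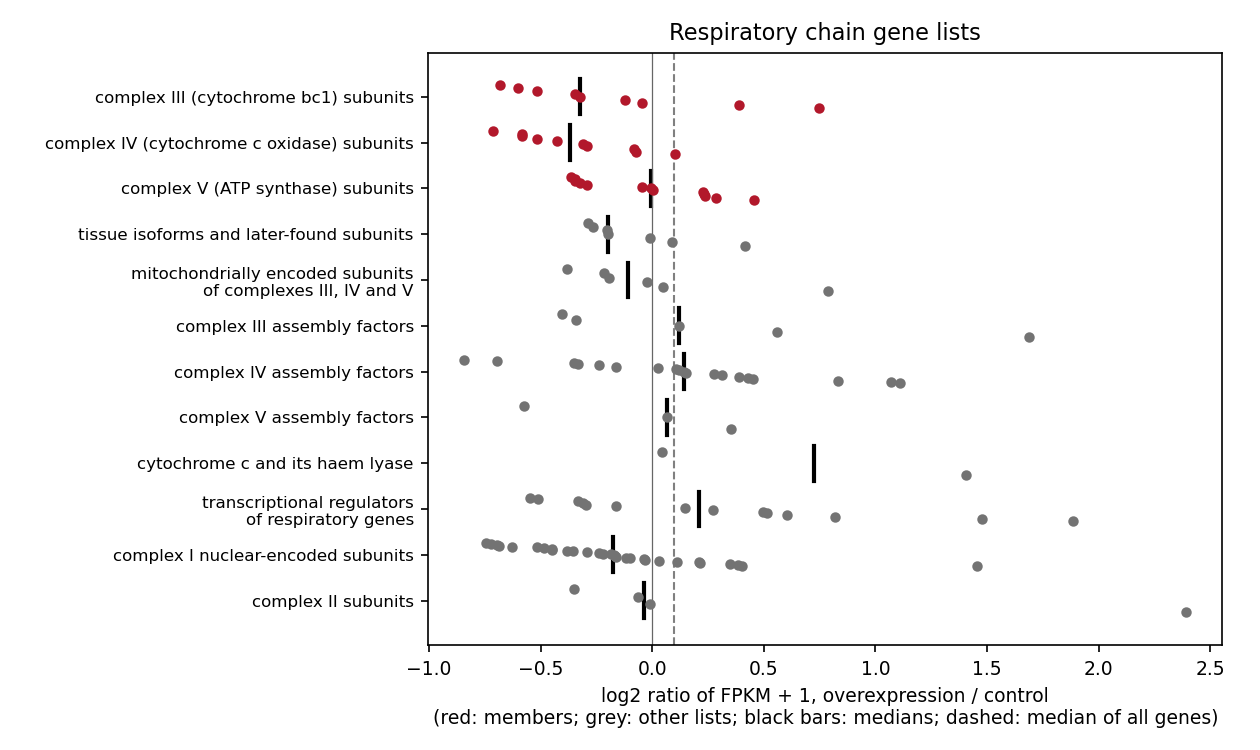
Log2 ratio of FPKM + 1, overexpression over control, of each gene past the filter (points, black bars for medians) in the member complexes (red) and in related respiratory gene lists (grey), 1 library per group, with the median of all genes, 0.10, dashed. The complex III and IV medians, -0.33 and -0.37, are the lowest of the lists, and no member reaches the values of CYCS, LYRM7, TFAM, NDUFA5 or SDHD.

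Member promoters were searched for the 3 motifs printed in capitals above. Promoter windows of 300 bases were found for 27 of the 34 members among 27305 RefSeq promoters, taken as 1 per symbol. NRF1 letters were in 10 of 27 member windows (37.0%), against 8.05% of all promoters and 15.9% of the 8758 promoters of genes kept. ETS letters were in 12 (44.4%), against 10.7% and 20.2%. YY1 letters were in 9 (33.3%), against 6.82% and 11.2%. At least 1 motif was in 20 windows (74.1%), against 22.1% and 39.5%, and no test of these shares was made. Of the 13 members with a window that were at least 1.2-fold lower, 5 held the NRF1, 6 the ETS and 5 the YY1 motif, and of the 3 that were at least 1.2-fold higher, 0, 1 and 1 did. UQCRC1 and UQCRC2 are an example of the first and second kind, and ATP5PF, with all 3 motifs, lay among the genes that differed by less than 1.2-fold in FPKM + 1. A match is a description of letters and shows no binding.

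Among the members are 8 head-to-head pairs with a gene on the other strand, and the log2 ratios of a pair had one sign in 4 and opposite signs in 4. No such count over all genes is given here, so it is not read as a result about the members. Of the opposite pairs, UQCRQ with GDF9 and ATP5ME with MYL5 rest on very low values. GDF9 had 0.112 FPKM in the overexpression library and 0.0584 FPKM in the control, and ATP5ME had 3 and 1 fragments. UQCR10 with ZMAT5, COX4I1 with EMC8, ATP5F1C with KIN and UQCRH with LRRC41 shared a sign. ATP5F1A starts 2 bases from HAUS1, a gene of the spindle complex augmin, which had 13.4 FPKM in the overexpression library and 8.05 FPKM in the control, while ATP5F1A was near equality. ATP5PB overlaps the start of WDR77, which had 10.4 FPKM with overexpression and 14.4 FPKM in the control, the opposite of ATP5PB. UQCRH, near equality itself, starts 23 bases from LRRC41, at 11.9 FPKM in the overexpression library and 16.3 FPKM in the control.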

How the data were processed

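RNA from 2 libraries of HGC27 cells was analysed, 1 per group. The authors deposited 1 value per gene, whose unit the labels do not name; it was read as FPKM because the deposited values, multiplied by the merged exon length in GENCODE 29, were whole multiples of 1 step per library, within 0.02 of a fragment, for 94.3% of genes in the overexpression library and 94.5% in the control. That step gave fragments per gene and depth. Poly(A) RNA was selected with oligo-dT beads, per the labels' protocols. Bowtie2 2.2.3, HISAT2 2.1.0, HTSeq 0.6.0 and GRCh38 were named, per the submitters' processing notes; their roles, the annotation and the strand setting are not given in the sources used here.

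The log2 ratio of FPKM + 1, which understates differences of low genes, was computed for genes with a mean of at least 1 FPKM, without a test. Intervals are exact 95% Poisson intervals (levels), Clopper-Pearson intervals (shares) and conditional binomial intervals (ratios); amplified fragments are not independent molecules. Trends were lowess fits with a span of 0.3 (statsmodels 0.14.6), GC content and length being those of the longest transcript that codes and has a 3′ UTR. Intervals and trend subtraction were tested on simulated data. Scalings, pseudocounts, filters and trends were varied, and lists of pathway and marker genes were read beside the members. Named genes were all members, the mitochondrially encoded subunits and, per list, up to 4 genes with the largest absolute log2 ratio. For complexes I and II up to 2 were named. The transcriptional regulators at least 1.2-fold lower were named as well. For markers the named genes had the highest levels among those with a mean of at least 1 FPKM, or were at 0 in both libraries. Head-to-head neighbours and pseudogenes were added after their values were seen. The members and lists were chosen with earlier results of these data known. Promoters are from RefSeq, build GRCh38.p14.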

Additional observations from a re-analysis of the deposited data

How the results depend on the processing

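With 1 library per group no replicate could be left out. No paired analysis was possible because neither group has a second library, so no test was run. The members' median log2 ratio of -0.29 was -0.45 under median-of-ratios scaling, -0.46 under the trimmed mean of M values, -0.19 with GC content and length trends subtracted, 0.059 with the level trend and -0.062 with all of these trends; for complex III the same settings gave -0.52, -0.53, -0.18, -0.065 and -0.030, and upper-quartile scaling and the GC content trend alone -0.40 and -0.16. Scaling moved the median of all genes kept as well. From 0.10 it went to -0.074 under the median of ratios, -0.082 under the trimmed mean and 0.032 under the upper quartile. Where trends were subtracted it was held at 0.10. Complex IV was at -0.044 with the level trend subtracted. Complex V was at -0.21 under both median-of-ratios and trimmed-mean scaling, -0.083 under the upper quartile, 0.10 with the level trend, 0.12 with all trends, and, in alternatives chosen after the data were seen, -0.29 over 5 members sharing under 5% of exon bases and -0.31 over 8 with at least 1000 fragments in both libraries. Members at least 2-fold lower numbered 1 with the GC content trend subtracted, alone or with length. Members at least 1.2-fold higher numbered 1 under median-of-ratios scaling, the trimmed mean of M values and the GC content trend, 2 with GC content and length trends, 9 with the level trend, and 2 in each of the subsets by exon sharing and by fragments. Members at least 1.2-fold lower numbered 11 with GC content and length trends, 3 with the level trend and 10 with all trends. Of the 19 members sharing under 5% of exon bases, 11 were. Apart from the GC content and length trends together, the shares of all genes at 1.2-fold under these settings are not given here. The members' share was 0.780% with overexpression and 0.932% in the control without mitochondrial genes in the total, and 0.834% and 0.969% of summed FPKM.

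Among members at least 1.2-fold from equality as deposited, single members changed sign only where a trend was subtracted. With the level trend these were UQCRFS1 (0.089), COX5A (0.14), COX6B1 (0.046), ATP5F1B (0.16), ATP5F1D (0.041), ATP5MC1 (0.00054), ATP5MC2 (0.071) and ATP5MC3 (0.038). With GC content and length trends they were UQCRB (-0.21), CYC1 (0.061), COX6A1 (0.0046), ATP5F1D (0.23), ATP5MC1 (0.080) and ATP5MC2 (0.11), and with the GC content trend alone UQCRB (-0.16), ATP5F1D (0.12), ATP5MC1 (0.018) and ATP5MC2 (0.045). With all trends they were UQCRB (-0.27), CYC1 (0.22), COX6B1 (0.18), ATP5F1B (0.14), ATP5F1D (0.36), ATP5MC1 (0.15) and ATP5MC2 (0.24). Members nearer equality also changed sign under scaling alone, such as COX7B, from 0.10 as deposited to -0.099 under median-of-ratios scaling. The cause of the changes was not tested.

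A pseudocount of 0.1 gave 6 members at least 1.2-fold higher and a complex IV median of -0.46, no filter gave a members' median of -0.21, and a filter at a mean of 5 FPKM, which 28 members passed, gave -0.31; the 2-fold counts stayed at 0 in each. Depth limits ATP5ME, ATP5PO and COX6A1 most, with 3, 39 and 26 fragments in the overexpression library and 1, 30 and 36 in the control.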
